A study of Mus musculus with 2 samples.

Results

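Chemokine ligands are small secreted proteins that guide migrating leukocytes, and their transcripts were followed here in the spleen of adult C57BL/6J mice. Members were all genes whose symbol is Ccl, Cxcl, Xcl or Cx3cl followed by a number, which gave 38 of the 43346 genes in the deposited gene tables. Of these, 37 are annotated as protein-coding and Cxcl11 as a polymorphic pseudogene. The choice used symbols and no measured value.

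Poly(A) RNA of whole spleen was sequenced in 2 biological replicates, called library 1 and library 2. Both come from mice of the inbred strain C57BL/6J at 8 weeks of age, which carry no allele, transgene or treatment named in the labels and form a single group. The labels describe littermates of both sexes, list both samples under the same donor record and do not record the sex of either, or how many animals went into a library. An SD (n = 2) or a p-value therefore measures only the spread, or the counting error, between these samples, which may be technical.

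A chemokine acts through receptors on the surface of the migrating cell, and most ligands fall into the CC and CXC families, named after the spacing of their first cysteines. Homeostatic chemokines are made at rest and place B cells, T cells and dendritic cells in separate zones of the splenic white pulp, while inflammatory chemokines are induced by microbial products, interferons or injury and draw in monocytes, neutrophils and effector lymphocytes. Many lie in dense gene clusters formed by duplication, some with copies nearly identical in sequence, so that reads of one copy can match another.

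Sequence matters for several ligands, and Ccl21a is shown here. Its reads had to be separated from those of 4 copies, Ccl21b, Gm10591, Gm21541 and Gm13304. The coding sequence of Ccl21a has 399 bases. Each copy differs from it at the same 2 positions, T84A and C194T, where the base of Ccl21a comes first, the base of the copy last, and positions count from the first coding base. Coding base 194 is known to separate the serine form of the protein, made in lymphoid organs, from the leucine form. The 2 pairs of lines below show a stretch of one read length, 76 bases, around each difference in Ccl21a and Ccl21b, with the differing base in capitals. The sequences are coding strand, 5′ to 3′, on mm10, each joined across an exon boundary, and the other 3 copies match Ccl21b in both stretches.
Ccl21a at base 84, chr4:42773710-42773873, minus strand: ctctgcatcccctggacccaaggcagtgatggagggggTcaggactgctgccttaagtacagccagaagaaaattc
Ccl21b at base 84, chr4:42255812-42255975, plus strand: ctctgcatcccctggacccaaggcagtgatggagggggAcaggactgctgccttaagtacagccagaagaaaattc
Ccl21a at base 194, chr4:42773506-42773675, minus strand: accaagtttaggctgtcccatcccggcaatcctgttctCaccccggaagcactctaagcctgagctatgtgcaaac
Ccl21b at base 194, chr4:42256010-42256179, plus strand: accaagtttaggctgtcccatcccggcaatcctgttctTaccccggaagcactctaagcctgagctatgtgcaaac

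The spleen held a few chemokine transcripts at very high level and most others near or below detection. TPM is a length-corrected share of the transcripts of a library. With 1 TPM as the limit of detection, 19 of the 38 ligands were detected in both libraries, where 28.8% of all genes and 53.9% of protein-coding genes were. Among the 19 is Ccl21b, whose level is not told apart from 0, as given below. Cxcl1 and Ccl24 reached the limit in library 1 alone, 12 had counts but stayed under 1 TPM in both, and 5 had no count in either. The ligands summed to 2276 TPM in library 1 and to 1649.6 TPM in library 2, or 1962.8 ± 443.0 TPM (SD, n = 2). Ccl5, Cxcl12, Ccl19 and Ccl21a alone made up 91.8% and 90.5% of that sum.

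**Figure D1:**
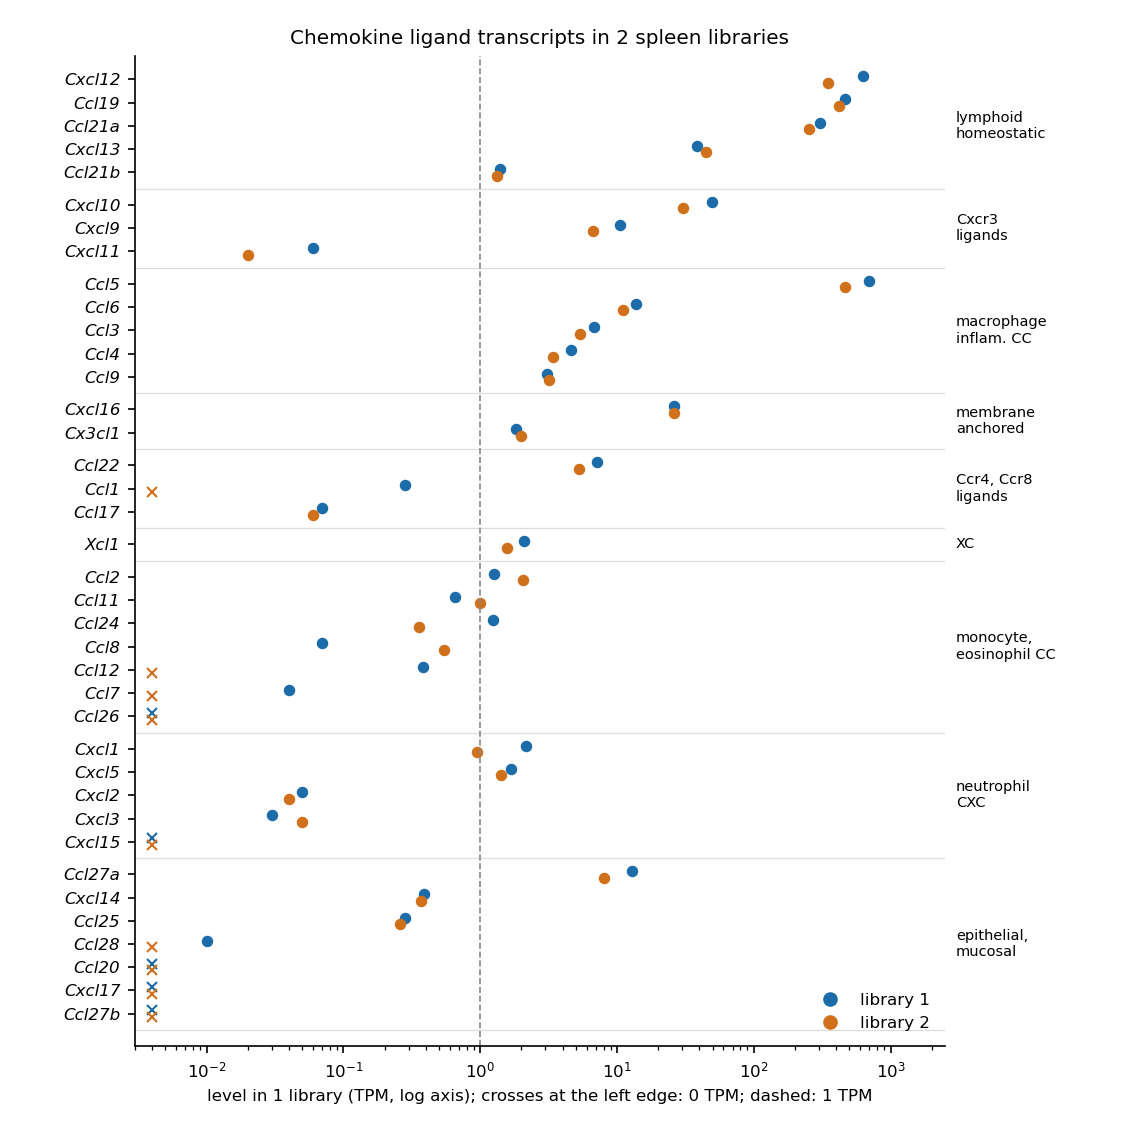
Level of each of the 38 chemokine ligands in each library, in TPM on a log axis, ordered by role; each point is 1 library, crosses at the left edge are 0 TPM, and the dashed line is 1 TPM. Ccl5, Cxcl12, Ccl19 and Ccl21a lie above 250 TPM in both libraries, and 17 ligands stay left of the dashed line in both.

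Genes received 49686344 expected counts in library 1 and 51393345 in library 2, and 0 counts allow up to 3, which is 0.0319 and 0.0286 TPM for a gene of median length. Ratios between libraries are of counts scaled by TMM, a trimmed mean of log ratios (factors 1.01 and 0.99), and are given as library 2 over library 1. TPM shifts apart from this: the share of haemoglobin genes was 19.4% of TPM in library 1 but 30.3% in library 2, and the median detected gene stood in library 2 at 0.903 of its TPM in library 1, a log2 shift of -0.15. TPM levels and scaled ratios of a gene therefore need not point the same way. Of 17547 genes with 10 or more counts, 50.7% differed between the libraries beyond counting error, 24.1% higher and 26.6% lower in library 2. The test was an exact two-sided binomial test with Benjamini-Hochberg adjustment, which compares these libraries and has no replicate check. These shares over all genes stand beside every count of markers called below. In bulk tissue, fewer cells of a type and less RNA per cell cannot be told apart. For B cells, the main lymphocytes of the organ, 5 of 5 B cell markers were detected, at sums of 2139.5 and 1918.6 TPM. In scaled counts, however, 4 of them were higher in library 2 beyond counting error and 1 was lower, with a median log2 ratio of 0.12. Marginal zone macrophage markers, all 3 higher in library 2, summed to 48.4 and 76.8 TPM, platelet markers to 274 and 185 TPM and adipose markers to 47.8 and 104 TPM. Beyond counting error 2 platelet markers were lower in library 2 and 1 was higher, and all 3 adipose markers were higher. Pancreatic acinar markers summed to 72867.4 and 55065.8 TPM, but in scaled counts 3 of the 4 were higher in library 2 and Ctrb1 alone was lower.

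The chemokines that organise the white pulp held the largest share. All 5 were at 1 TPM or more in both libraries, though the level of Ccl21b was not told apart from 0. They summed to 1435.6 TPM in library 1 and 1072.2 TPM in library 2. Cxcl12 retains precursor, plasma and B cells in their niches through Cxcr4. Its gene lies at chr6:117168535-117181367 on the plus strand (ENSMUSG00000061353.7) and stood at 626 TPM in library 1 and at 351 TPM in library 2. The scaled ratio was 0.650-fold (95% counting interval 0.642 to 0.659), the narrowest interval among the 25 ligands tested, from 57946 and 38175 counts, and it passed the exact binomial test. Among genes of similar count, 12.9% differed between the libraries at least as far.

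Ccl19 and Ccl21a share the receptor Ccr7 and draw T cells and dendritic cells into the T cell zone. Ccl19 (ENSMUSG00000071005.5, chr4:42754525-42756577, minus strand) stood at 464 TPM in library 1 and at 423 TPM in library 2, with a scaled ratio of 1.01-fold (0.989 to 1.04) that did not pass the exact binomial test (adjusted p = 0.361). With the trend of ratios on GC content and length removed, its log2 ratio of 0.02 became 0.15 and passed (exact binomial test, adjusted p = 8.96e-14). Ccl21a (ENSMUSG00000094686.1, chr4:42772860-42773993, minus strand) stood at 306 and 253 TPM. Its scaled ratio of 0.914-fold (0.888 to 0.941) passed (exact binomial test, adjusted p = 4.9e-09), but not with that trend removed (adjusted p = 0.114). Both T zone ligands thus differed by little in scaled counts, and the order of the top ligands by TPM was not the same: Cxcl12 ranked above Ccl19 in library 1 and below it in library 2.

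Cxcl13, made by follicular stroma, attracts B cells through Cxcr5. It was higher in library 2, at 38.4 TPM in library 1 and at 44.8 TPM in library 2 (ENSMUSG00000023078.5, chr5:95956951-95961068, plus strand). The scaled ratio was 1.28-fold (1.21 to 1.37; exact binomial test, adjusted p = 1.96e-14), and 18.3% of genes of similar count differed as far. With the GC and length trend removed its log2 ratio fell from 0.36 to 0.13 (exact binomial test, adjusted p = 0.0149). Ccl21b, a copy with the leucine base, was listed at 1.39 and 1.33 TPM from 12.7 and 14.3 expected counts. The deposited interval for its level ran from 3.23e-06 to 3.58 TPM in library 1 and from 3.1e-06 to 3.16 TPM in library 2, so its level is not told apart from 0. This holds for Ccl21b only: Gm21541, a copy with the same coding sequence, stood at 6.68 and 3.58 TPM.

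Markers of the stromal cells known to make these ligands did not move as one. Of 7 markers of T zone and reticular stroma, 6 were detected, and their sum was 48.0 TPM in library 1 and 42.8 TPM in library 2. The median log2 ratio was 0.28, with 3 markers higher and 1 lower beyond counting error, beside 24.1% and 26.6% of all genes tested. Pdpn, a defining surface protein of those cells, stood at only 0.16 and 0.26 TPM. The 5 follicular dendritic cell markers summed to 1882.8 and 1264 TPM with a median log2 ratio of -0.36. Beyond counting error Mfge8, Clu and Madcam1 were lower in library 2, while the complement receptor Cr2 (0.39) and Fcer2a (0.13) were higher. Endothelial markers, 5 of 5 detected, summed to 603 and 508 TPM with a median log2 ratio of 0.23. Of these, 4 were higher in library 2 beyond counting error and Plvap, at 488 and 378 TPM, was lower. The 3 mesothelial markers were all lower, from 17.8 to 10.4 TPM in sum. None of these markers was at 0, and their part in the ligand differences was not tested.

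Macrophage inflammatory CC chemokines, which attract effector lymphocytes and myeloid cells, formed the other large group, with 5 of 5 detected and sums of 722 and 490.2 TPM. Nearly all of it was Ccl5, which T cells and NK cells store as transcript and protein. Ccl5 (ENSMUSG00000035042.2, chr11:83525778-83530518, minus strand) stood at 693 TPM in library 1 and at 467 TPM in library 2, the highest ligand in each. Its scaled ratio was 0.767-fold (0.745 to 0.789; exact binomial test, adjusted p = 3.84e-73), and 14.6% of genes of similar count differed as far. The T cell markers, 5 of 5 detected, summed to 203 and 199.5 TPM with 3 higher and none lower in library 2 beyond counting error. The 5 NK cell markers summed to 38.1 and 40.6 TPM with 3 higher and 1 lower. The part of these cells in the difference of Ccl5 was not tested.

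Ccl6, a constitutive product of mouse myeloid cells, stood at 13.9 TPM in library 1 and at 11.1 TPM in library 2 (ENSMUSG00000018927.3, chr11:83587882-83593087, minus strand). Its scaled ratio was 0.837-fold (0.742 to 0.945; exact binomial test, adjusted p = 0.00865). Ccl3, also called MIP-1 alpha (ENSMUSG00000000982.5, chr11:83647844-83649355, minus strand), stood at 6.84 and 5.33 TPM. Its ratio of 0.868-fold (0.697 to 1.08) did not pass (adjusted p = 0.287), although it did with the GC and length trend removed (log2 ratio -0.36, exact binomial test, adjusted p = 0.0488). Ccl4, its neighbour and close relative, was at 4.60 and 3.40 TPM and Ccl9 at 3.10 and 3.20 TPM, and neither passed. Myeloid markers gave no single direction. All 5 red pulp macrophage markers were higher in library 2 beyond counting error, from 300.3 to 517 TPM in sum. Monocyte markers summed to 364 and 397 TPM, with 2 higher and 1 lower beyond counting error. Neutrophil markers summed to 243 and 191 TPM, with 2 higher and 2 lower. The part of these cells in the ligand values was not tested.

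Cxcl9 and Cxcl10, interferon-induced ligands that bring Cxcr3-bearing effector T and NK cells, were both lower in library 2 by a similar amount. Cxcl10 (ENSMUSG00000034855.9, chr5:92346638-92348889, minus strand) stood at 49.9 TPM in library 1 and at 30.6 TPM in library 2, a scaled ratio of 0.677-fold (0.629 to 0.729; exact binomial test, adjusted p = 1.37e-24). Cxcl9 (ENSMUSG00000029417.8, chr5:92321347-92328079, minus strand) stood at 10.5 and 6.69 TPM, or 0.694-fold (0.639 to 0.755; adjusted p = 3.36e-17). Of genes of similar count, 6.83% differed as far as Cxcl10 and 8.99% as far as Cxcl9. Cxcl11, the remaining ligand of the receptor, had 5 and 4 counts. It carries a frameshift in C57BL/6 mice, and GENCODE M21 lists it as a polymorphic pseudogene.

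The promoters of this neighbouring pair are shown because both genes were lower in library 2. Each line gives the 250 bases before the RefSeq transcription start on GRCm38.p6, 5′ to 3′ in the direction of the gene. Capitals mark matches on either strand to the interferon-stimulated response element core (GAAA, any 2 bases, GAAA), to the NF-kB consensus or to TATAAA.
Cxcl10, chr5:92348890-92349139, minus strand: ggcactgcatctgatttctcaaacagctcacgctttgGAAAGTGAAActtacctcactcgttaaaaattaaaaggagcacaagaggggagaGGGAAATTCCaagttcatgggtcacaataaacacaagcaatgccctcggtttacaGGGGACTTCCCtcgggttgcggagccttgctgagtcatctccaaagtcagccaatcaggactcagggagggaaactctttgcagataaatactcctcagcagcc
Cxcl9, chr5:92328080-92328329, minus strand: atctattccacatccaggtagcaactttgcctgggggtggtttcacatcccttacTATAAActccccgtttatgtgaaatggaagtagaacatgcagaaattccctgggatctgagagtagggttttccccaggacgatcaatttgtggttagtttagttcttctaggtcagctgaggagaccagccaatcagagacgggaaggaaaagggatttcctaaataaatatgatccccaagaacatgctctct

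In Cxcl10 the response element core begins 213 bases before the start, and NF-kB matches begin at 159 bases and, as an overlapping pair, at 104 and 103 bases. Cxcl9 holds only TATAAA, 195 bases before the start. RefSeq promoter windows of 300 bases, 50 of them after the start, were found for 25 ligands. The response element core lay in 3 of them (Ccl19, Cxcl10 and Cxcl14) and in 3.44% of all 32851 windows. The NF-kB consensus lay in 6 (Cxcl10, Ccl9, Cxcl1, Cxcl2, Cxcl3 and Ccl20) and in 8.46% of all windows, and TATAAA in 8 and in 13.6%. A match is a description of letters and not a measured site. The 6 genes with an NF-kB match ran in mean level from 0 TPM for Ccl20 to 40.2 TPM for Cxcl10.

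Membrane-anchored ligands, Cxcl16 and Cx3cl1, carry their chemokine domain on a mucin stalk. Cxcl16, which is also a scavenger receptor of macrophages and dendritic cells, stood at 25.95 TPM in library 1 and at 25.92 TPM in library 2 (ENSMUSG00000018920.7, chr11:70453983-70459984, minus strand). Its scaled ratio was 1.07-fold (1.02 to 1.13; exact binomial test, adjusted p = 0.0137). With library totals in place of TMM it did not pass (adjusted p = 0.0981), and as a log2(TPM + 1) difference it turned to -0.002. Cx3cl1, or fractalkine, stood at 1.84 and 2.00 TPM (log2 ratio 0.24, adjusted p = 0.0709 by the same exact test) and passed with the GC and length trend removed (0.36, exact binomial test, adjusted p = 0.00619).

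Ccl22, a dendritic cell product that calls Ccr4-bearing T cells, stood at 7.11 TPM in library 1 and at 5.26 TPM in library 2 (ENSMUSG00000031779.3, chr8:94745590-94751699, plus strand). The scaled ratio was 0.806-fold (0.719 to 0.902; exact binomial test, adjusted p = 0.000457). Ccl17, the other Ccr4 ligand, had 1 count in each library although it lies in the same cluster. Dendritic cell markers, 4 of 5 detected, summed to 22.9 and 26.2 TPM with 3 higher and none lower, and their part in the difference was not tested. Xcl1, a product of NK and CD8 T cells that attracts cross-presenting dendritic cells, stood at 2.08 and 1.57 TPM from 31 and 27 counts and did not differ beyond counting error (adjusted p = 0.699 by the exact test).

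Monocyte and eosinophil attractants were scarce. Of 7, only Ccl2, the main monocyte chemoattractant, was detected in both libraries, at 1.27 TPM in library 1 and at 2.06 TPM in library 2. It was higher in library 2, 1.81-fold (1.2 to 2.79), from 37 and 68 counts (exact binomial test, adjusted p = 0.00806). Ccl24, or eotaxin-2, went the other way, from 65 to 21 counts (1.25 and 0.36 TPM), 0.319-fold (0.185 to 0.529; exact binomial test, adjusted p = 5.2e-06), and 4.59% of genes of similar count differed as far. Ccl8, known from macrophages of skin and gut, had 1 and 9 counts, a ratio of 8.88 with an interval of 1.23 to 389. Its call (exact binomial test, adjusted p = 0.0433) was lost with no filter on low values or with the GC and length trend removed (0.0521 in each). Ccl11, Ccl12 and Ccl7 stayed between 0 and 0.99 TPM, and Ccl26 had no count.

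Neutrophil attractants of the CXC family were no more abundant. Cxcl1, or KC, stood at 2.16 TPM in library 1 and at 0.95 TPM in library 2, from 77 and 38 counts, a scaled ratio of 0.487-fold (0.321 to 0.728; exact binomial test, adjusted p = 0.000737). Cxcl5 stood at 1.67 and 1.42 TPM and did not pass (adjusted p = 0.693 by the same exact test). Cxcl2 and Cxcl3 each had 1 or 2 counts in a library, and Cxcl15, a lung product, had none. The counting interval of the Cxcl2 ratio ran from 0.0716 to 13.6, so that a difference within those bounds was not detectable at this depth.

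Ligands of epithelia and mucosa stayed under 1 TPM, apart from Ccl27a. Ccl25, the thymic and gut ligand, had 8 and 10 counts and Cxcl14 had 30 and 32, both between 0.26 and 0.39 TPM, and Ccl28 had 1 count in all. Ccl20, Cxcl17 and Ccl27b had no count, where 3 counts would be 0.0797, 0.114 and 0.294 TPM in library 1 and 0.0714, 0.101 and 0.25 TPM in library 2. For Ccl27b this floor assumes that its reads could be told apart from those of Ccl27a. Of the other ligands with no count, the same floor was 0.0326 and 0.0295 TPM for Cxcl15, but 0.901 and 0.671 TPM for Ccl26, whose annotated transcript is short, so that a level near detection could have been missed. Ccl27a, a skin chemokine (ENSMUSG00000073888.8, chr4:41769467-41774247, minus strand), stood at 12.8 TPM in library 1 and at 8.07 TPM in library 2, with a scaled ratio of 0.805-fold (0.665 to 0.973; exact binomial test, adjusted p = 0.0474). That call was lost with no filter on low values (0.0571) and with the GC and length trend removed (0.376).

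Transcript shares qualify several of these levels. For 13 of the 19 detected ligands, 1 annotated transcript held over 90% of the TPM in both libraries. These included Ccl21a (ENSMUST00000095114.4), Cxcl13 (ENSMUST00000023840.5), Cxcl9 (ENSMUST00000113093.3), Ccl22 (ENSMUST00000034231.3) and Ccl3 (ENSMUST00000001008.5), each at 100%. Of the 13, Ccl21a, Cxcl13, Cxcl9, Ccl3, Ccl4, Xcl1, Cxcl5 and Ccl21b have only 1 annotated transcript, so their 100% follows from the annotation. Ccl5 was led by its coding transcript of 3 exons and 91 codons (ENSMUST00000035938.2) at 97.6% and 96.8%, and Cxcl16 by ENSMUST00000019064.4 at 98.8% and 96.3%. Ccl27a was the opposite case, with 20 annotated transcripts, a retained intron in the lead (ENSMUST00000133572.3, 34.4% and 43.1%) and only 16.5% and 21.2% of its TPM on coding models. Most of the TPM of Ccl27a was thus assigned to models that are not coding.

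Cxcl12 spread over 3 coding transcripts that share their start and differ in their last exons. The alpha form of 89 codons (ENSMUST00000112866.3) led with 85.5% of the gene's TPM in library 1 and 79.7% in library 2. The beta form of 93 codons held 10.8% and 13.9%. The gamma form of 119 codons, known for a long basic tail that binds heparan sulphate, held 3.10% and 5.21%. The shares of beta and gamma were higher in library 2, where the gene as a whole was lower, and with 1 library on each side that difference has no replicate check.

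In Ccl9, Cxcl10 and Ccl6 the share of TPM and the share of reads parted. In Ccl9 a processed transcript of 398 bases (ENSMUST00000136131.1), beside a coding transcript of 3006 bases, held 56.8% and 62.8% of the TPM but 8.01% and 10.8% of the counts. In Cxcl10 a retained intron of 344 bases took 20.1% and 18.7% of TPM from 3.62% and 3.69% of counts, beside the coding transcript ENSMUST00000038816.8 at 79.3% and 78.3% of TPM. Ccl6 had a retained intron (ENSMUST00000138145.1) at 40.4% and 54.5% of TPM from 25.8% and 37.0% of counts, and its coding transcript at 51.8% and 42.7%. The gene TPM of these ligands thus exceeds what their coding transcripts alone hold. Ccl19 was led by its coding transcript of 4 exons (ENSMUST00000102957.3) at 89.4% in each library, with a processed transcript at 10.2%.

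**Figure D2:**
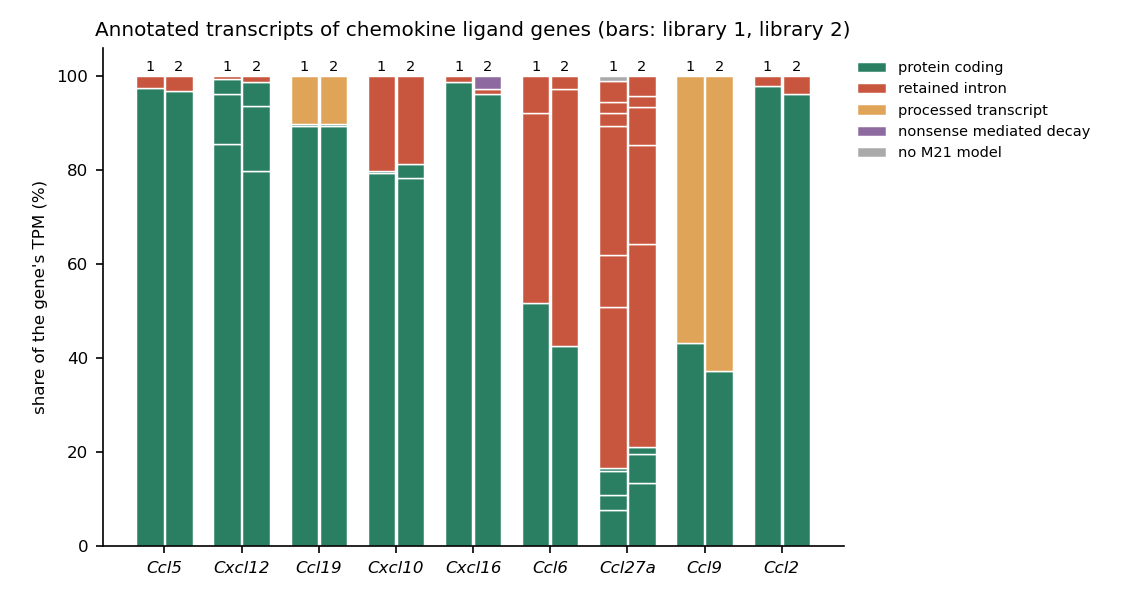
Share of a gene's TPM held by each annotated transcript, in percent, for the 9 detected ligands with more than 1 transcript above 0; the left bar of a pair is library 1 and the right bar library 2, segments are transcripts and colours their GENCODE M21 type. Coding models fill nearly all of Ccl5, Cxcl12, Cxcl16 and Ccl2, and a minority of Ccl27a.

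Shared sequence limits some of the highest values. Over every stretch of 76 bases, 8 of 38 ligands shared at least 1 with another gene. For Ccl19 the shared part was 63.1%, for Ccl21a 60.9%, for Ccl21b 100%, for Ccl27b 98.0% and, in its leading transcript, 46.9% for Ccl27a, while for Cxcl5, Cxcl2 and Cxcl3 it was under 4%. Ccl5, Cxcl12, Cxcl13, Cxcl9 and Cxcl10 shared none. Of the reads assigned to Ccl21a and its 4 copies, 97.6% and 98.3% went to Ccl21a. The only copy above 2 TPM was Gm21541, at 6.68 and 3.58 TPM, while Ccl21b and Gm10591 were given equal values and Gm13304 was at 0.

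Ccl19 held 89.3% and 89.5% of the reads of its family. Its copies were not negligible: the unprocessed pseudogene Ccl19-ps1 stood at 46.0 TPM in library 1 and at 37.9 TPM in library 2, Gm2564 at 43.4 and 38.2 TPM and Gm12407 at 20.7 and 17.4 TPM. Ccl27a held 79.4% and 90.4% of its family's reads. Pooling each ligand with its copies, an alternative chosen after seeing the data, gave log2 ratios of 0.02 for Ccl19 and -0.14 for Ccl21a, close to those of the ligands alone. For Ccl27a it gave -0.50 in place of -0.31. How well the deposited values split a family between its copies was not tested.

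Levels were also read along the chromosomes, where many ligands lie side by side. Joining ligands at most 500 kb apart gave 7 clusters with 29 ligands, and 9 stood alone. On chromosome 11, the cluster Ccl5, Ccl9, Ccl6, Ccl3 and Ccl4, 139 kb long, had all 5 members detected, at mean levels of 3.15 to 580.2 TPM. On the same chromosome, the separate 270.1 kb cluster of Ccl2, Ccl7, Ccl11, Ccl12, Ccl8 and Ccl1 had 1 of 6 detected and no mean above 1.67 TPM. The 147 kb cluster of neutrophil attractants on chromosome 5 had 1 of 5 detected. Within clusters levels still varied: in the 66.4 kb on chromosome 8, Ccl22 and Cx3cl1 were detected and Ccl17 was not. On chromosome 4 Ccl27b at 0 counts lay between Ccl21b and Ccl19. As 98.0% of its stretches are shared with other genes, that count depends on how reads were split.

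**Figure D3:**
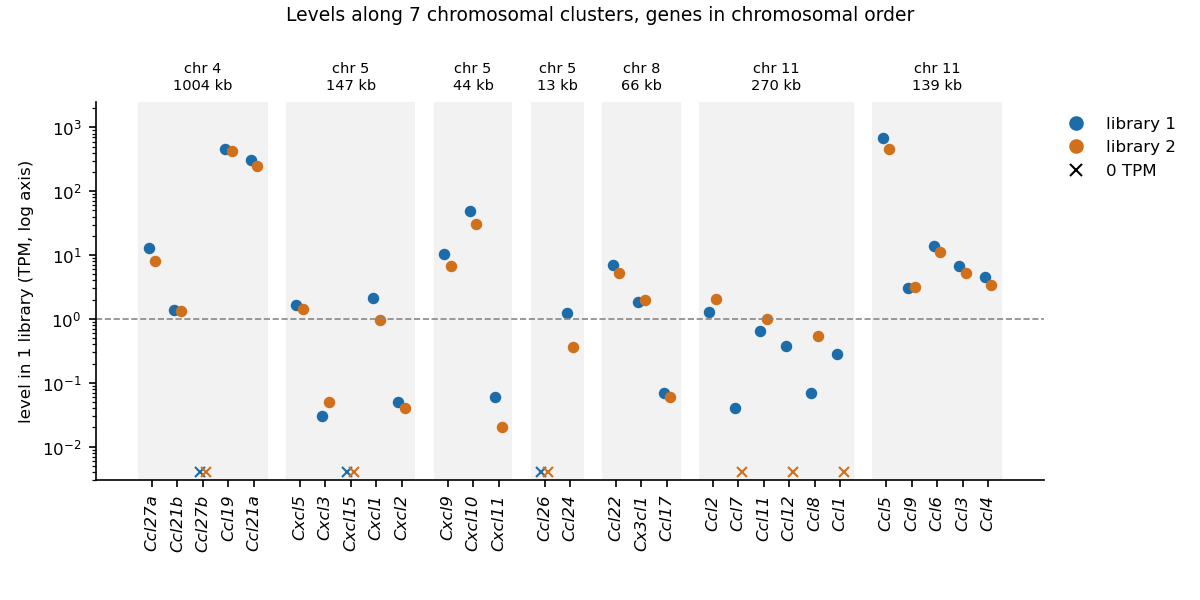
Levels of the 29 clustered ligands in TPM on a log axis, 1 point per library, genes in chromosomal order within the 7 shaded clusters; crosses are 0 TPM and the dashed line is 1 TPM. All 5 ligands of the 139 kb cluster on chromosome 11 lie above the dashed line in both libraries, and only Ccl2 of the 270.1 kb cluster does.

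Of 23 chemokine receptors, 20 were detected in both libraries, 16 of 18 signalling and 4 of 5 atypical. The exceptions were Ccr8 (1.63 and 0.71 TPM), Cxcr1 (0.16 and 0.25 TPM) and the scavenger Ackr4 (0.92 and 1.08 TPM). The lymphocyte-homing receptors led. Cxcr4 stood at 254 TPM in library 1 and at 278 TPM in library 2, Ccr7 at 175 and 122 TPM and Cxcr5 at 127 and 107 TPM. Ackr3, which scavenges Cxcl12, stood at 107 and 76.3 TPM. Beyond counting error Ccr7 (log2 ratio -0.40), Ackr3 (-0.37) and Cxcr5 (-0.13) were lower in library 2 and Cxcr4 (0.17) was higher, by the exact binomial test.

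Ligand and receptor levels stood in very different proportion from axis to axis. The Ccr7 ligands summed to 771 and 676 TPM, 4.41 and 5.55 times their receptor, whereas Cxcl13 stood at 0.301 and 0.418 of Cxcr5. At the other end, Ccr6 was at 37.9 and 36.8 TPM while its only chemokine ligand Ccl20 had no count, and Ccr9 at 7.21 and 8.15 TPM while Ccl25 was at 0.28 and 0.26 TPM. For Cxcr3 the ligands stood at 1.60 and 1.14 times the receptor, which stood at 37.8 and 32.6 TPM and did not pass (adjusted p = 0.0504 by the exact test). These are transcript ratios in mixed tissue and say nothing of protein.

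**Figure D4:**
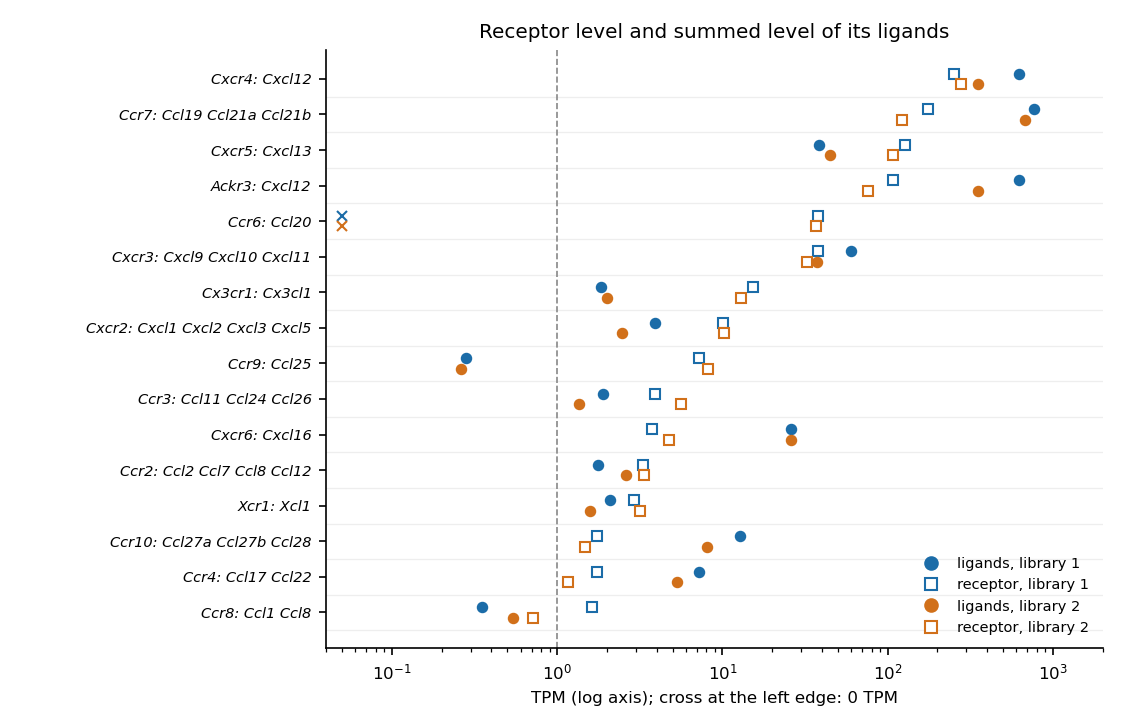
Level of each of 16 receptors (open squares) and summed level of its ligands (filled circles) in each library, in TPM on a log axis; crosses at the left edge are ligands at 0 TPM and the dashed line is 1 TPM. Ligands lie above the receptor for Ccr7, Ccr10 and Cxcr6 in both libraries, and below it for Cxcr5, Ccr6 and Ccr9.

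Lymphotoxin signalling through noncanonical NF-kB is known to maintain Ccl19, Ccl21a and Cxcl13 in splenic stroma. All 9 genes of a list made for that pathway, which also held Tnf and its receptor Tnfrsf1a, were detected in both libraries. Beyond counting error 6 were lower in library 2, Tnf and Tnfrsf1a among them, and 1 was higher. Of all genes tested, 26.6% were lower and 24.1% higher. The median log2 ratio of the list was -0.15. Over all genes detected in both libraries the median was -0.016. Ltb, the membrane anchor of lymphotoxin, stood at 687 TPM in library 1 and at 481 TPM in library 2, Relb at 102 and 68.5 TPM, Nfkb2 at 171 and 127 TPM and Tnf at 11.9 and 6.76 TPM. Lta, at 22.4 and 24.2 TPM, was the one higher. Among chemokine-like genes whose names fall outside the rule, the platelet CXC ligands Ppbp and Pf4 stood at 304 and 279 TPM and at 169 and 135 TPM, and Mif at 1034.7 and 605 TPM.

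Most ligands differed between the libraries by less than 2-fold. None of the 19 detected in both passed that limit, where 1.94% of the 12500 genes detected in both did, 1.01% higher and 0.928% lower in library 2. Among the 25 with 10 or more counts, Ccl24 (lower) and Ccl8 (higher) passed it on the log2 ratio with a prior count of 2, beside 7.25% of all such genes, 2.83% lower and 4.43% higher. Cxcl1 lay at the limit on that scale and past it without a prior count (0.487-fold). By the exact binomial test 14 of these 25 differed beyond counting error, beside 50.7% of all genes tested. Of the 14, 10 were lower in library 2 and 4 were higher, while over all genes 26.6% were lower and 24.1% higher. The median log2 ratio was -0.20 for the 19 ligands and -0.016 for all genes detected in both, and 13 of the 19 lay below 0, as did 52.2% of all such genes. Taken over both directions together, the share of ligands called was near that of all genes tested. With 1 library on each side the direction has no replicate check.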

How the data were processed

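Notes deposited beside the files state that values were computed by the authors from alignments to the mm10 transcriptome with GENCODE M4, 1 library per table. In the sources used here, the aligner and the quantification tool are not given. The authors deposited expected counts (estimated reads, not normalized), TPM and posterior mean TPM scaled over all entries including 97 spike-ins, FPKM, bounds of TPM at a level that is not stated, and the percent of its gene's TPM held by each transcript. Reads that match several genes were divided by their estimation. Contigs and junctions on mm9 were not analysed here.

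Symbols and positions came from GENCODE M21 (GRCm38) by unversioned identifier, with 42462 of 43346 matched (98.0%). Spike-ins and 26248 further entries with 0 counts were left out of library sizes. Counts were rounded and scaled with TMM in edgeR 4.0.16 under R 4.3.3, with a prior count of 2 for log2 ratios and none for folds. The exact binomial test covered genes with 10 or more counts in total, with a threshold of 0.05 after Benjamini-Hochberg adjustment. Intervals are Clopper-Pearson at 95% and, as no molecular identifiers are named, cover only the error of counting. Genes of similar count are those within 2-fold of a ligand's total. The libraries hold distinct data, with a chi-square of 142.0 per degree of freedom between their counts, and edgeR's common dispersion gave a biological coefficient of variation of 0.186 over 15860 genes. Shared stretches were searched across all M21 transcripts, and promoters were taken from RefSeq (GRCm38.p6), matched by symbol, strand and a start within 500 bases. Other steps used Python 3.11.15 with scipy 1.17.1, numpy 2.4.6 and pandas 2.3.3.

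Members follow from symbols alone. Their rule, and the role groups, receptor, pathway and marker lists, were chosen with earlier results of these data known. The 12 ligands of highest mean TPM were described in full, those at a mean of 1 TPM or more with both values, and lower ones by range, named if at 0, past 2-fold with 10 counts, or at 1 TPM in 1 library only. Ccl1, Ccl7, Ccl11, Ccl12, Ccl17, Ccl25, Ccl28, Cxcl2, Cxcl3, Cxcl11 and Cxcl14 were named beyond that rule to account for each group. The values of 1 receptor of the list are not reported here.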

Additional observations from a re-analysis of the deposited data

How the results depend on the processing

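With 1 library on each side, leaving out a library leaves no ratio. With either library left out, 19 to 21 ligands and 21 to 21 receptors were detected, the summed level was 1649.6 to 2276 TPM and the median leading transcript share 100% to 100%. That share is 100% by annotation for the ligands with only 1 annotated transcript. Without haemoglobin and pancreatic acinar genes the summed level was 2837.6 TPM. The count of ligands past 2-fold, 0 as reported, was 4 with no filter on low values (Ccl24, Ccl8, Ccl12 and Ccl1), 1 with 50 or more counts in total and 2 at a limit of 1.5-fold. These counts use the log2 ratio with a prior count, on which Cxcl1 lay at the limit. The 14 ligands beyond counting error became 11 at a threshold of 0.01 and 13 or 14 under the other alternatives run, with Ccl12 (6 and 0 counts) gaining a call when no filter was set. The difference of Cxcl16 turned to -0.002 as log2(TPM + 1), a scale that moves with the haemoglobin share. The call of Ccl21a was lost with the GC and length trend removed, those of Ccl27a and Ccl8 also with no filter, and that of Cxcl16 with library totals, while Ccl19, Ccl3 and Cx3cl1 gained one with the trend removed. The cause was not tested. Depth limits the 13 ligands under 10 counts, for which no test was made. No paired analysis was possible because the labels give a single group.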
